A study of Mus musculus with 2 samples.

Results

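Broad promoter peaks were defined as open chromatin regions that the authors annotated within 1 kb of a transcription start site (TSS) and that were 2000 bp or wider. They numbered 954 of 13126 such promoter peaks in WT regulatory T (Treg) cells (7.27%) and 482 of 10373 in Treg cells without transketolase, here called cKO (4.65%). The 1436 broad peaks were taken from 54120 peaks in all. The members were chosen by their width in these same lists, so their number and widths are a description, and no test was made on them. Both libraries were made from CD4+CD25+YFP+ cells of C57BL/6 females, 7 weeks old, with spleen and lymph node given as the tissue. The WT mice were Foxp3cre/+ with the genotype given as wild type, and the cKO mice were Foxp3cre/+ TKTfl/fl, so Cre was present in both groups and was driven from the Foxp3 locus. The labels call the mice chimeric, and Foxp3-Cre was carried on a single allele, so YFP marked the cells to be sorted. Of 50000 cells per reaction, 1 library was made for each genotype, and the number of mice behind each library is not given in the sources used here. Every difference below is therefore between these libraries and was not set against a spread between replicates.

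ATAC-seq marks open chromatin by the insertion of adapters with the Tn5 transposase. At most active promoters the open region is a short nucleosome-poor stretch around the TSS. At some genes it spreads over the first exon and intron or over neighbouring regulatory elements, and broad active promoter chromatin has been described at genes of cell identity and at genes under tight signal control. Treg cells are CD4 T cells that depend on the transcription factor Foxp3 and hold immune responses in check. Transketolase acts in the non-oxidative pentose phosphate pathway.

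The promoter sequences of 6 broad WT peaks show how unlike these regions are in base composition. They are the genes with the widest broad WT peak in each of 6 hand-written lists, among genes whose RefSeq start lies inside the peak, and each gene was used once. Pdcd1 encodes the inhibitory receptor PD-1, Irf4 a factor of effector Treg cells, Lcp2 the adaptor SLP-76 of T cell receptor signalling, Foxp1 a factor of T cell quiescence, Junb an AP-1 subunit, and Il6st the signalling receptor chain gp130. Each stretch holds the 200 bases before the start in RefSeq on GRCm38.p6, the assembly of mm10, read 5′ to 3′ on the gene's strand. Capitals mark matches, on either strand, to the motifs named further below.
Pdcd1 (chr1:94052554-94052753, minus strand): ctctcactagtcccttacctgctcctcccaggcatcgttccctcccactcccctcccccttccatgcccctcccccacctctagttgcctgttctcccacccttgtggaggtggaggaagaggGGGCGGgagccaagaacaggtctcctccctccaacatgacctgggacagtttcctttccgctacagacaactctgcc
Irf4 (chr13:30749033-30749232, plus strand): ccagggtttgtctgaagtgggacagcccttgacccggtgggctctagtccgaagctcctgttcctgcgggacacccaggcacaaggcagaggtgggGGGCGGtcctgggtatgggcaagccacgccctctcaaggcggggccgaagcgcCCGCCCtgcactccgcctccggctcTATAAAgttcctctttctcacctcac
Lcp2 (chr11:34046728-34046927, plus strand): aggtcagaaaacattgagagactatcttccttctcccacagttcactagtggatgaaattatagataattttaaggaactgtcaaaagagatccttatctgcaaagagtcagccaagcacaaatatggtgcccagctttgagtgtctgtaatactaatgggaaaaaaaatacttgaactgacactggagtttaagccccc
Foxp1 (chr6:99028299-99028498, minus strand): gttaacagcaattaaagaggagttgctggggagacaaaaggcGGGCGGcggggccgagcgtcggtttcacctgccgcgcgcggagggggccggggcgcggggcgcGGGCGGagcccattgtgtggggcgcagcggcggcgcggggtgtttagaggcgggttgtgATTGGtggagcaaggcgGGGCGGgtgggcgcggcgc
Junb (chr8:84978749-84978948, minus strand): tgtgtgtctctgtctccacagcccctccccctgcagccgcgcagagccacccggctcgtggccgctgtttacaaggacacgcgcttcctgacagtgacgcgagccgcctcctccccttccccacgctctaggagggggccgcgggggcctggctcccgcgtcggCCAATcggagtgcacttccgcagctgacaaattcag
Il6st (chr13:112463870-112464069, plus strand): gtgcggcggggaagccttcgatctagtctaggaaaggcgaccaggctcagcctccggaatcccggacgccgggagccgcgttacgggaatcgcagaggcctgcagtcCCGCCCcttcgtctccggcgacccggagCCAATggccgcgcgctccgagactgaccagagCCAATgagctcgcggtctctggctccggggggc
The stretch of Lcp2 had 0 CpG dinucleotides and 39% G and C, and that of Pdcd1 had 3 CpG. Foxp1 had 27 CpG and 72.5% G and C, Il6st 24 CpG, Junb 18 and Irf4 11. Foxp1 held 3 GC boxes and 1 CCAAT box, Irf4 2 GC boxes and 1 TATA box, and Il6st 1 GC box and 2 CCAAT boxes. No motif searched was found in the Lcp2 stretch. A match describes letters only and was not tied to binding of any factor.

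The files held 34440 WT and 19680 cKO peaks over 36.0 and 20.7 Mb. The sequencing depth is unknown, and both the number and the width of called peaks can move with it. Narrower promoter peaks, the 12172 WT and 9891 cKO peaks of the same annotation under 2000 bp, serve as the contrast. Tkt itself had a promoter peak of 1485 bp in WT and 1372 bp in cKO, so the targeted gene is not among the broad ones. These peaks do not check the genotype, because the labels do not say which part of Tkt is floxed. Of 10 genes that define T and Treg cells, Cd3g had no peak under its own symbol in either list. A peak over Cd3g that was assigned to a neighbouring gene would be missed, which was not checked. The other genes had at least 1 peak of any annotation in each, though Cd4 had none within 1 kb of a TSS in cKO. The part of these genes in a cell type check is limited, since an open promoter is not a measure of expression.

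The median broad peak was 2320 bp wide in WT (quartiles 2138 and 2620) and 2291 bp in cKO (2117 and 2599). Widths of 3000 bp or more were reached by 95 WT and 47 cKO peaks, and 4000 bp by 10 and 2. Broad peaks made up 14.4% of the length of all WT promoter peaks within 1 kb and 9.87% of that in cKO. Just inside the threshold in WT lay Trerf1 at 2001 bp and Cnppd1 and Vaultrc5 at 2000 bp, and just outside it Tbc1d30 at 1999 bp and Ktn1 and Gbp6 at 1998 bp. In cKO, P2ry14 had 2001 bp and Mir142hg and AC167363.2 2000 bp, against 1999 bp at Dleu2, Gart and Foxp4. The threshold therefore cut through a continuous range of widths. Of WT peaks of any annotation that were 2000 bp or wider, 60.6% lay within 1 kb of a TSS (954 of 1575), and in cKO 67.2% (482 of 717), against 38.1% and 52.7% of all peaks.

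Several of the widest peaks lay at genes induced by signals. Among symbols other than predicted models, the 10 widest WT peaks belonged to Myc, Junb, Il6st, Tgif1, Brd2, Gadd45g, Atf3, Pde4b, Tmsb10 and Fli1. Myc, the growth regulator, had 4614 bp on chr15:61983400-61988013, a peak that reached 1991 bp upstream and 2622 bp downstream of its assigned TSS. In cKO the same stretch held 2 peaks, the larger of 2927 bp, which together spanned 4374 bp. Junb had 4601 bp on chr8:84975570-84980170 in WT and a single peak of 4238 bp in cKO. Both libraries thus had 1 continuous peak over Junb, whereas the Myc region was broken in cKO. Tgif1, a repressor of TGF-beta signalling, had 4335 bp in WT and 3757 bp in cKO, most of it upstream of the assigned TSS (3772 bp in WT). Il6st went the other way, with 3697 of its 4336 bp downstream.

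Breaks of this kind made up many of the largest width differences. Over Il6st the cKO list had 2 peaks that spanned 3682 bp, the larger of only 1468 bp. Brd2, a reader of acetylated histones, had 4188 bp in WT and 2 cKO peaks with a span of 4137 bp, the larger 1894 bp wide. Lfng, a glycosyltransferase that modifies Notch, had 3847 bp in WT and 2 cKO peaks spanning 3144 bp. At Atf3, a stress-induced factor, the WT peak of 4092 bp met 1 cKO peak of 1702 bp, and at Zfp710 a WT peak of 2919 bp met 1 cKO peak of 637 bp. At these last 2 genes the cKO list had no second peak inside the WT region.

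Peaks broken in WT and continuous in cKO also occurred. Cd82, a tetraspanin, had 1 cKO peak of 3528 bp where WT had 2 peaks that spanned 3837 bp, the larger 1864 bp wide. The same held for Zc3hav1, an antiviral RNA-binding protein (3307 bp in cKO, span of the WT peaks 3286 bp), N4bp2l1 (3116 and 3091 bp) and Ywhaz, a 14-3-3 protein (2824 and 2869 bp). Over all broad peaks, 35 of 954 WT peaks met 2 or more cKO peaks (3.67%, 2.65 to 5.06). In the other direction, 46 of 482 cKO peaks met 2 or more WT peaks (9.54%, 7.23 to 12.5). In 32 of the 35 and 46 of the 46 the pieces together spanned 2000 bp or more. Among narrower promoter peaks, 0.03% in WT and 0.76% in cKO met 2 or more. A gap between called pieces can also close or open with depth, which was not tested.

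**Figure D1:**
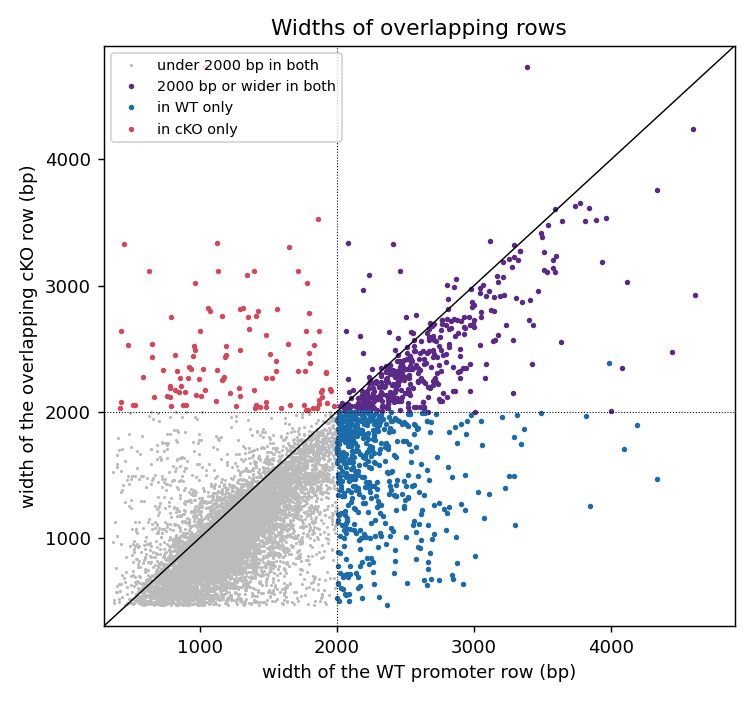
Each point is 1 WT promoter peak within 1 kb of a TSS that overlapped a cKO peak (10470 peaks), with its width in bp on the x axis and the width in bp of the cKO peak that shares most bases with it on the y axis. Colours show in which list the promoter peak was 2000 bp or wider, the dotted lines mark 2000 bp and the solid line marks equal width, and most points lie below it.

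Nearly all broad peaks had a partner in the other library. Of the 954 broad WT peaks, 935 were overlapped by at least 1 bp of a cKO peak (98.0%, Wilson 95% interval 96.9 to 98.7), against 79.8% of all WT promoter peaks within 1 kb and 56.1% of all WT peaks. All 482 broad cKO peaks were overlapped by a WT peak (100%, 99.2 to 100), against 99.5% of all such cKO peaks and 97.6% of all cKO peaks. Intervals here and below cover counting error only. The partner carried the same gene symbol for 98.0% of the shared broad WT peaks and for 97.7% of the broad cKO peaks.

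Narrower WT promoter peaks were shared less often, at 9535 of 12172 (78.3%, 77.6 to 79.1). The gap of 19.7 points (Newcombe interval 18.4 to 20.7) fell to 11.4 points when broad and narrower peaks were compared within 10 equal bins of the authors' score. A wide peak meets a given partner more easily than a narrow one. With the centre of the WT peak required to lie in a cKO peak, a criterion chosen after the data were seen, 89.7% of broad and 76.9% of narrower peaks were shared. The share rose steeply at small widths, from 9.69% of peaks under 500 bp through 57.6% from 500 bp to 92.1% from 1000 bp. It was 95.5% from 1500 bp, 97.9% from 2000 bp, 97.8% from 2500 bp and 98.9% from 3000 bp up, each class ending where the next begins. Against the next narrower class alone the gap was 2.52 points (1.17 to 3.72). On the cKO side the gap was 0.58 points (-0.23 to 0.75).

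**Figure D2:**
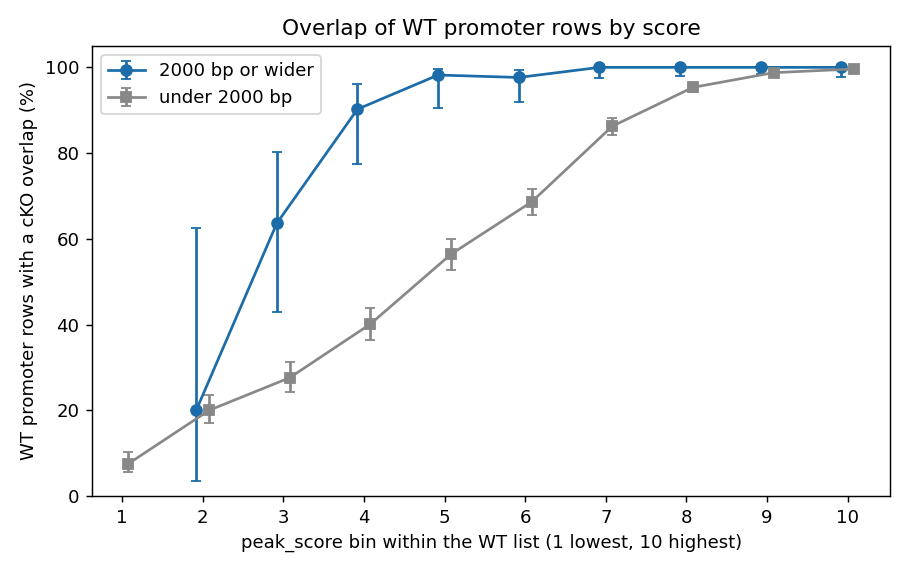
The y axis gives the percent of WT promoter peaks within 1 kb of a TSS that overlapped a cKO peak, by 10 equal bins of score within the WT list on the x axis, for peaks of 2000 bp or more (circles) and narrower ones (squares), with Wilson 95% intervals. Broad peaks reached 90.2% in bin 4 (37 of 41) and 98.2% in bin 5, where narrower peaks stood at 40.1% and 56.4%, and in bin 10 the shares were 100% and 99.6%.

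The 19 broad WT peaks without a partner were mostly weak. Their score percentiles within the WT list lay between 13.1 and 51.1 with a median of 29.2, where 100 is the highest score, and their median width was 2391 bp. The widest was at Tshz2, a zinc finger homeobox factor, with 3106 bp on chr2:169632049-169635154, followed by Susd2 with 2704 bp. Shld1, a subunit of the shieldin complex of DNA end protection, had 2561 bp. The predicted models 4930535E02Rik (2697 bp) and Gm47418 (2590 bp) completed the 5 widest. Dll4, a Notch ligand, and Ctnnb1, which encodes beta-catenin, were named after their values were seen, with 2391 and 2375 bp. Among broad cKO peaks 0 of 482 lacked a WT partner, which allows a share of up to 0.622%. When the WT list was cut to its 19680 strongest peaks, as many as the whole cKO list holds, the order turned. Then 97.7% of broad cKO and 99.8% of broad WT peaks were shared. Removing WT peaks can only lower the cKO share, and the unshared broad WT peaks were mostly weak. The cut thus favours this turn, and no conclusion is drawn from it.

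Breadth itself was shared less fully than presence. The partner was a broad promoter peak for 405 of 954 broad WT peaks (42.5%, 39.4 to 45.6), against 3.95% of all WT promoter peaks, and for 405 of 482 broad cKO peaks (84.0%, 80.5 to 87.0), against 9.04% of all cKO promoter peaks. The cKO list held fewer broad peaks, which limits the first share. Of the other broad WT peaks, 319 met a cKO promoter peak of 1500 to under 2000 bp, 136 one of 1000 to under 1500 bp and 58 one under 1000 bp, while 17 met a peak of another annotation. Score fell along this order. The median score percentile in the WT list was 81.0 (79.8 to 82.1) for peaks broad in both lists, 78.0 for those with a partner of 1500 to under 2000 bp, 65.8 for 1000 to under 1500 bp and 50.8 (45.7 to 59.5) for those under 1000 bp. By symbol, 400 genes were broad in both lists, 548 only in the WT list and 81 only in the cKO list. Genes whose peak was split or carried another symbol in the other list are among those counted for a single list. Peaks of the other list together spanned 2000 bp or more over 433 of 954 broad WT peaks (45.4%, 42.3 to 48.6). The same held over 448 of 482 broad cKO peaks (92.9%, 90.3 to 94.9). When the 482 widest WT peaks (2317 bp or more) were taken, 64.3% had a broad cKO partner.

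Where widths could be paired, the WT peak was usually the wider. Of the 935 shared broad WT peaks 95.7% were wider than their partner, by a median of 348 bp. These peaks were chosen by WT width. Of the 482 broad cKO peaks, chosen by cKO width, 366 were narrower than their WT partner and 113 were wider, at a median difference of -143.5 bp (cKO minus WT). Of these 113, 46 met 2 or more WT pieces. Among narrower WT promoter peaks with a partner, 84.0% were wider than it, by a median of 174 bp. Over the 10470 overlapping WT promoter peaks the widths correlated across peaks with a Spearman coefficient of 0.69 and Pearson's r of 0.72, which describes the same loci in both libraries. The part of depth in the width difference was not tested.

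By score, broad peaks were spread over much of the range of promoter peaks. Their median score percentile among all peaks of the list was 76.6 in WT (74.9 to 77.7) and 72.9 in cKO (70.9 to 76.0), beside 75.8 and 66.2 for narrower promoter peaks. Among promoter peaks within 1 kb alone it was 51.3 in WT and 58.1 in cKO. In WT 18.1% of broad and 24.0% of narrower promoter peaks fell in the highest 10% of scores, and 13.0% against 24.95% fell below the median of the list. In cKO the shares in the highest 10% were 17.8% of broad and 16.5% of narrower peaks, and 17.4% against 31.2% fell below the median. Broad WT peaks thus took up the middle of the promoter scores more than either end. Within broad peaks width and score were nearly unrelated across peaks (Spearman coefficient -0.08 in WT, n = 954, and 0.01 in cKO, n = 482), while over all promoter peaks it was 0.38 and 0.39. Myc ranked first by width but 10877 by score in WT, Junb second by width and 9117 by score, and Fli1, an ETS factor of blood cells, 15433 with 3965 bp.

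As a group, broad peaks reached farther than narrower ones on both sides of the TSS, which their choice by width favours. The median broad WT peak reached 961 bp upstream (903 to 1034) and 1362 bp downstream (1301 to 1443) of its assigned TSS, against 515 and 631 bp for narrower peaks. In cKO the median reach was 1090.5 and 1267 bp. The assigned TSS lay inside 93.8% of broad and 83.0% of narrower WT promoter peaks, and a wider peak holds a TSS more easily. Among peaks that held it, 59.2% of broad and 59.1% of narrower WT peaks reached farther downstream than upstream, and in cKO 53.1% (48.4 to 57.7) and 59.2% (58.2 to 60.3). The downstream share of the peak had quartiles of 33.8% and 77.7% in broad WT peaks, and 39.4% and 68.8% in narrower ones. In cKO they were 29.9% and 74.3% in broad peaks, and 38.8% and 72.8% in narrower ones. The place of the TSS within the peak thus varied more among broad peaks. Bcl2, the survival factor, lay almost wholly downstream (166 bp upstream and 2648 bp downstream in WT), as did Cd247, the zeta chain of the T cell receptor complex (106 and 2491 bp). Nr4a2, an orphan nuclear receptor, reached 2553 bp upstream and 767 bp downstream, and Egr3, a zinc finger factor induced by receptor signals, 2650 and 1161 bp.

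**Figure D3:**
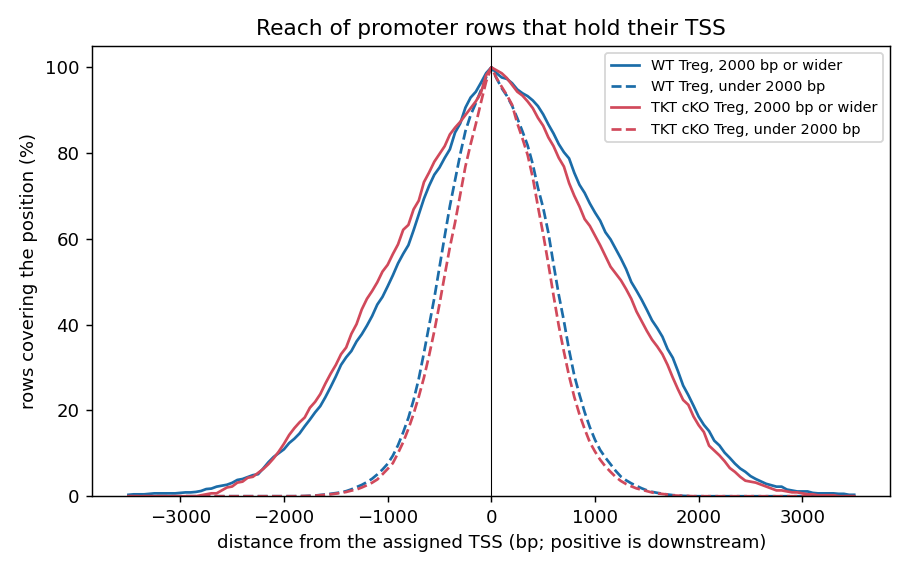
The y axis gives the percent of promoter peaks that cover each distance in bp from the assigned TSS (x axis, positive downstream), for WT (blue) and cKO (red) peaks of 2000 bp or more (solid) and narrower ones (dashed), over peaks that hold their TSS (895 and 441 broad peaks, 10100 and 8646 narrower ones). Pooled over peaks, the broad ones widen the profile on both sides, and the WT and cKO curves of broad peaks lie close together.

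Most broad peaks held the listed start of at most 1 gene. RefSeq starts of 2 or more genes lay in 15.6% of broad WT peaks (13.5 to 18.1) and 11.04% of narrower ones, and in 16.8% and 12.9% in cKO. A longer peak holds starts more easily, and these shares were not compared at equal width. The table of starts was not complete: 70.4% of broad and 63.7% of narrower WT peaks held any start from it. Genes with a broad promoter peak more often had further peaks outside this class. Such peaks were assigned to 52.0% of the 948 symbols with a broad WT peak (48.8 to 55.2) and to 36.9% of the 11410 symbols with narrower promoter peaks only (36.0 to 37.8). For 3 or more further peaks the shares were 19.3% and 8.32%. In cKO, 36.4% of 481 and 20.4% of 9582 symbols had a further peak. The assigned transcripts spanned a median of 16992 bp for broad (15071 to 19671) and 17198 bp for narrower WT peaks (16675 to 17760). In cKO the medians were 14989 bp (12598 to 17972) and 18226 bp (17679 to 18900). The upper quartiles were higher for broad peaks, at 51479 against 42443 bp in WT and 46935 against 43141 bp in cKO. Further peaks were not compared at equal transcript length.

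At the start, the number of CpG and the G and C content were close in broad and narrower promoters, and the ratio of observed to expected CpG was somewhat lower in broad ones. RefSeq windows of 300 bases (250 before and 50 after the start) were matched by symbol to 643 of 954 broad WT peaks and 8482 of 12172 narrower ones. The median window held 20 CpG (quartiles 10 and 30) and 61% G and C at broad peaks, and 21 CpG (13 and 29) and 61.3% at narrower peaks. The ratio of observed to expected CpG had a median of 0.720 (0.694 to 0.755) against 0.766 (0.759 to 0.772) in WT, and 0.713 (0.691 to 0.744) against 0.781 (0.774 to 0.788) in cKO. Over all 32851 RefSeq windows the median was 7 CpG and the ratio 0.384. The broad windows were spread somewhat more at the lower end, where Lcp2 (0 CpG in its window) and Pdcd1 (5) stand, while Foxp1 had 44.

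The search covered 11 motifs on both strands, with no motif contained in another. The letters were GGGCGG for the GC box, CCAAT for the CCAAT box, CCGGAAGT for the ETS site, TGACGTCA for the cyclic AMP response element, TGANTCA for the AP-1 site, TGTGGTT for the RUNX site, TATAAA for the TATA box, CACGTG for the E-box and TTCNNNGAA for the GAS site, and the NRF1 and NF-kB sites are given by name. The search used the 571 broad and 6921 narrower WT peaks whose window start lay inside the peak. The ETS letters were in 4.73% of broad windows (3.27 to 6.79) and 9.77% of narrower ones (9.09 to 10.5), against 3.89% of all RefSeq windows. In cKO they were in 7.19% of 278 broad windows (4.71 to 10.9) and 10.2% of narrower ones (9.48 to 10.998), so the intervals overlapped there. The RUNX letters were in 5.95% of broad (4.29 to 8.21) and 3.74% of narrower WT windows (3.32 to 4.22), against 5.27% of all windows. In cKO the shares were 6.12% (3.85 to 9.57) and 3.73% (3.28 to 4.23), with overlapping intervals. The NF-kB site was in 3.15% of broad (2.003 to 4.93) and 1.66% of narrower WT windows (1.39 to 1.99), against 1.63% of all windows. In cKO it was in 3.60% (1.97 to 6.49) and 1.63% (1.35 to 1.98), where the intervals just overlapped. GC boxes stood at 63.9% and 67.5%, and AP-1 letters at 3.68% and 4.68%. The WT and cKO windows are largely of the same genes and are not separate evidence. With 11 motifs compared and no test, these shares describe the windows only.

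Of the lists counted, genes induced by receptor signals had the highest share of broad peaks. The lists were chosen with earlier results of these data known, and some genes, such as Myc and Foxp1, stand in more than 1 list. Of all genes with a WT promoter peak within 1 kb, 7.67% had a broad one (948 of 12358), and in cKO 4.78% (481 of 10063). Of 51 activation-induced and feedback genes, 44 had a WT promoter peak and 28 a broad one (63.6%), and in cKO 22 of 45 (48.9%), with 18 broad in both. Their median widest promoter peak was 2121.5 bp in WT and 1975 bp in cKO, against 1205 and 1074 bp over all genes.

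By role, the AP-1 subunits gave 2962 bp (WT) and 2755 bp (cKO) at Jun and 2475 and 2316 bp at Fosb, beside Junb above. The early growth response factors Egr1, Egr2 and Egr3 had 2111, 2501 and 3812 bp in WT and 1809, 2274 and 3515 bp in cKO. Phosphatases that end MAP kinase signals were broad in both lists at Dusp2 (2854 and 2735 bp), Dusp4 (2575 and 2370 bp) and Dusp6 (2930 and 2613 bp). Dusp5 had 861 bp in WT and 2203 bp in cKO, but 2 WT pieces spanned 2213 bp. Inhibitors of cytokine signals included Cish, with 3316 bp in WT and 1975 bp in cKO, Socs1 (2036 and 1838 bp) and Socs3 (2107 and 1804 bp). Messenger RNA decay factors Zfp36 and Zfp36l2 were broad in both. Of the NF-kB regulators, Nfkbia had 2159 bp in WT and 1345 bp in cKO. Nfkbiz had 2 broad WT peaks. The wider, of 2987 bp, met a cKO peak of 2872 bp, and that of 2420 bp met one of 1338 bp. Rgs1, a regulator of G protein signals, had 2800 bp in WT and 1200 bp in cKO.

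Symbols can hide a broad peak. The WT peak over Ier2 was 3466 bp wide but carried the symbol Gm26664, and the cKO peak of 2960 bp carried Ier2. Zfp36l1 had 2005 bp in cKO, under a WT peak of 4001 bp assigned to 1300014J16Rik. Cd5, an inhibitory receptor of T cells, had 2751 bp in cKO, under a WT peak of 3051 bp assigned to A430093F15Rik. Lists counted by symbol miss these WT peaks.

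**Figure D4:**
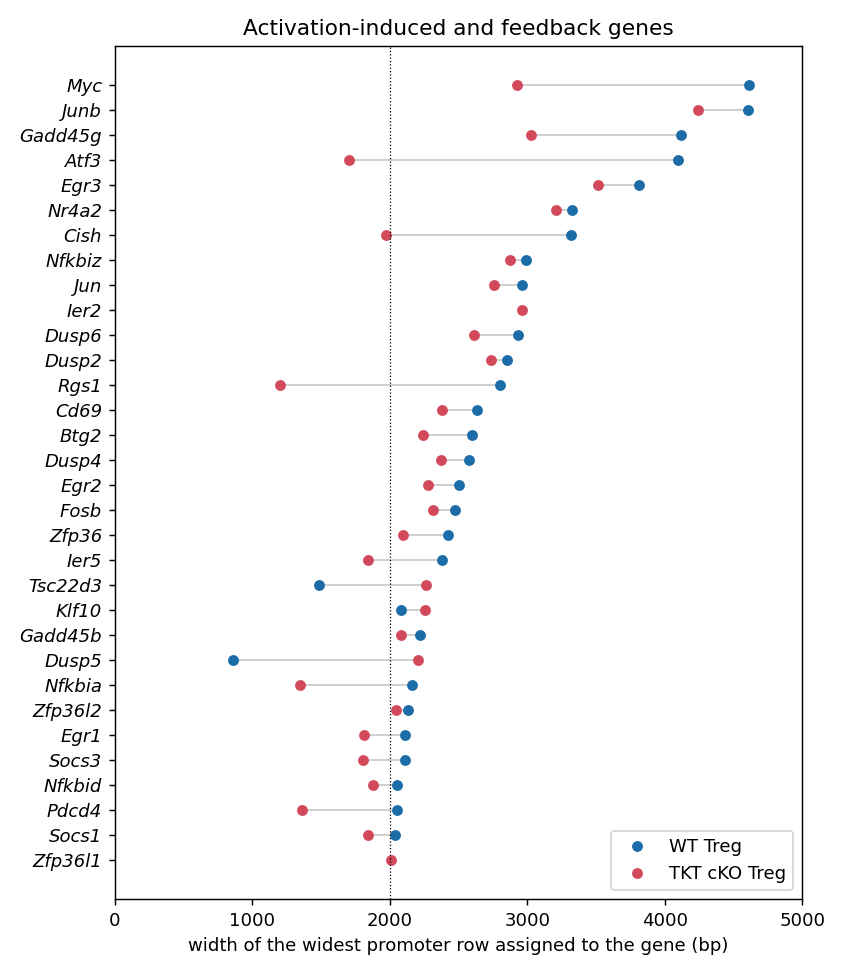
For each activation-induced or feedback gene with a promoter peak of 2000 bp or more in either list, the x axis gives the width in bp of its widest promoter peak in WT (blue) and cKO (red), and the dotted line marks 2000 bp. WT lies to the right for most genes, with the widest gaps at Atf3, Myc and Rgs1, whereas Dusp5 has the cKO point far to the right, and Ier2 and Zfp36l1 have no WT point because the WT peak carries another symbol.

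T cell genes followed. Of genes of the naive state and lymph node homing 8 of 18 were broad in WT (44.4%) and 5 of 18 in cKO, among them Bcl2 (2815 and 2535 bp) and the chemokine receptor Cxcr4 (2299 and 2104 bp). Klf3 had 2667 bp in WT and a cKO peak of 755 bp, 1 of 2 pieces that spanned 2340 bp. Of T cell receptor complex and signalling genes 12 of 33 were broad in WT (36.4%) and 6 of 32 in cKO (18.8%). The receptor chains Cd3e (2283 and 2243 bp), Cd3d (2645 and 2226 bp) and Cd247 (2598 and 2421 bp) were broad in both, as was Dgka, a diacylglycerol kinase that dampens the signal (2769 and 2089 bp). The adaptors Lcp2 (3112 and 1352 bp) and Lat (2225 and 1206 bp) and the kinase Lck (2078 and 1159 bp) were broad in WT alone. Fyn, a kinase related to Lck, had 2800 bp in cKO and 1428 bp in WT, where 2 pieces spanned 2889 bp.

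Of 53 T cell and Treg transcription factors with a WT promoter peak, 17 were broad (32.1%), and 13 of 48 in cKO (27.1%), 12 of them in both. Besides Myc and Fli1 they included Irf4 (3426 and 2379 bp), Foxp1 (2850 and 2035 bp), Ets1 (2431 and 2180 bp), Stat5a (2389 and 2369 bp) and Prdm1, which encodes Blimp-1 (2265 and 2033 bp). Foxp1 was 1 of 6 symbols with 2 broad WT peaks, at chr6:99025974-99028823 and chr6:99521205-99523839, beside Mbnl1, Nfkbiz, Wipf1, Plec and Psd4. In cKO the only such symbol was Bcor, a transcriptional corepressor. Nfatc1 had a broad peak in each list (2404 bp in WT and 2533 bp in cKO), but at different places, and the cKO peak met 2 WT pieces that spanned 2683 bp. Over the first Foxp1 peak the cKO list had 2 pieces that spanned 2131 bp, and over the second 1 peak of 2035 bp. Tox had 2491 bp in cKO, where WT had 2 pieces spanning 2739 bp.

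Treg identity and suppression genes gave 7 broad of 30 in WT (23.3%, 11.8 to 40.9) and 2 of 23 in cKO (8.70%, 2.42 to 26.8). The genes that define the lineage were not among them. Foxp3 had 873 bp in WT and 613 bp in cKO, Il2ra, which encodes CD25, 1278 and 1082 bp, Ctla4 800 and 1454 bp, and Ikzf2, which encodes Helios, 768 and 1400 bp. The Foxp3 peaks were weak, at score percentiles of 8.58 in WT and 4.26 in cKO. The widest Ikzf2 peaks lay at different places. The WT peak of 768 bp met a cKO peak of 658 bp, and the cKO peak of 1400 bp met a WT peak of 727 bp. The broad WT peaks lay at Tgfb1 (3074 bp), Pdcd1 (2758 bp), Il10 (2669 bp), the chemokine receptors Ccr4 (2654 bp) and Ccr8 (2008 bp), Izumo1r, the folate receptor FR4 (2507 bp), and the costimulator Icos (2128 bp). In cKO, Pdcd1 had 2325 bp and Tnfrsf4, which encodes OX40, 2050 bp. The cytokine genes Il10 and Tgfb1 were not broad in cKO. Over Il10 the cKO list had 1 peak of 1462 bp, annotated 1 to 2 kb from the TSS, and over Tgfb1 2 peaks with a span of 3041 bp. Cytokine and chemokine receptors had 9 broad of 34 in WT (26.5%) and 4 of 30 in cKO, with Il2rb at 2445 and 2251 bp.

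Lists of metabolism and of basic cell functions lay on both sides of the share of all genes, which was 7.67% in WT and 4.78% in cKO. In the pentose phosphate pathway 0 of 14 genes had a broad peak in either list, which allows a share of up to 21.4% (3 counts). Glycolysis and glucose transport had 5 broad of 22 in WT (22.7%, 10.1 to 43.4), an interval above the share of all genes. In cKO it had 2 of 22 (9.09%, 2.53 to 27.8), an interval that holds that share. Hexokinase Hk2 (2577 and 2769 bp) and the phosphofructokinase Pfkp (2511 and 2515 bp) were broad in both, and Slc2a3 (2111 and 1896 bp), Pfkfb3 (2211 and 1915 bp) and Slc16a1 (2036 and 1804 bp) in WT alone. Chromatin modifiers had 8 of 58 in WT (13.8%), with Brd2, the remodeler Smarca2 (2853 and 2987 bp) and the demethylase Kdm6a (2543 and 2397 bp). RNA processing genes had 5 of 36 in WT (13.9%), with the splicing factor Sf3b1 (3283 and 2568 bp) and the helicase Ddx6 (3211 and 3070 bp). Housekeeping genes had 2 of 13 in each list (15.4%, 4.33 to 42.2). Ribosomal protein genes, highly expressed in nearly all cells, had 1 of 54 (Rpl41, 2772 and 2447 bp) and mitochondrial ribosomal proteins 0 of 57, which allows up to 5.26%. Zfp-named zinc finger genes had 11 of 241 (4.56%, 2.57 to 7.99).

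Few markers of other cells had a promoter peak within 1 kb, but others had peaks of another annotation only, such as Klrb1c with 4 in WT and Cd79a with 1. The T and Treg genes above were counted by peaks of any annotation, so those counts and these are not alike. In WT, promoter peaks lay at 5 of 16 genes that mark B cells, 2 of 20 for myeloid and dendritic cells, 4 of 15 for CD8 T or NK cells and 5 of 18 for erythroid or stromal cells. None of these 16 was broad, which allows a share of up to 18.8%, and of 12 in cKO none was. With 7.67% and 4.78% of all genes broad, a count of 0 among so few genes lies near the background. Of 24 genes silent in lymphocytes 2 had such a peak, also not broad.

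**Figure D5:**
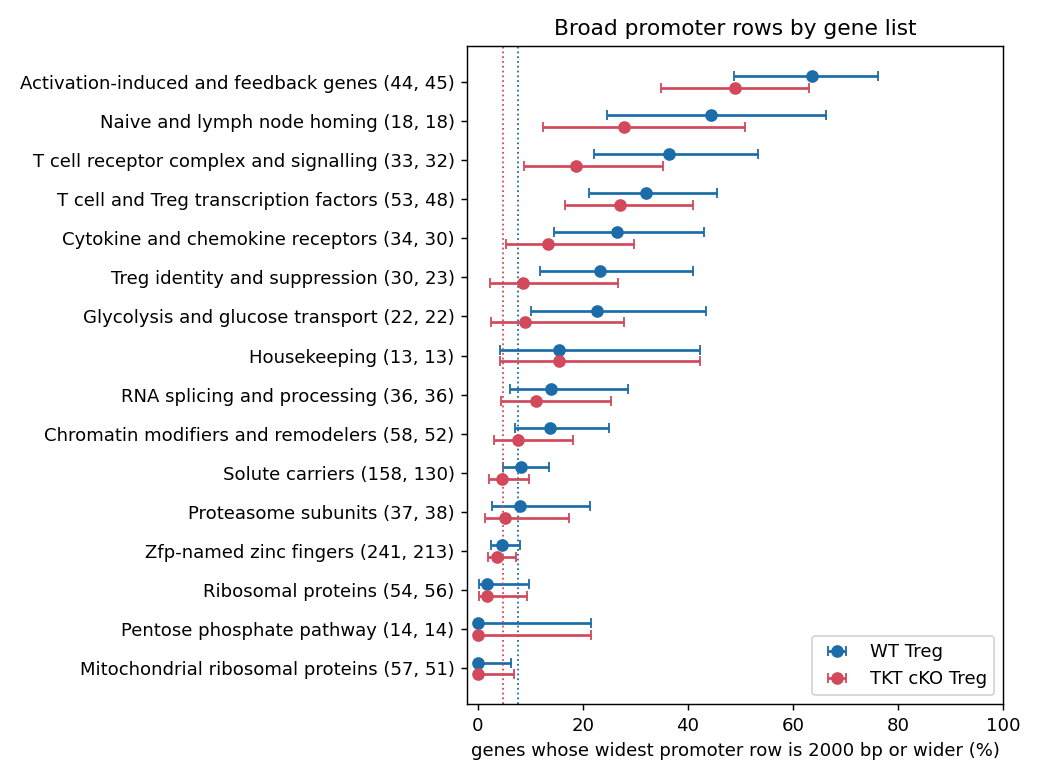
The x axis gives the percent of genes with a promoter peak whose widest one was 2000 bp or wider, for each gene list with 10 or more such WT genes (number of genes in WT and cKO in parentheses), in WT (blue) and cKO (red) with Wilson 95% intervals. The dotted lines mark all genes, at 7.67% in WT and 4.78% in cKO, and activation-induced and feedback genes lie farthest to the right in both lists.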

How the data were processed

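The tools named in the submitters' processing notes are BWA, MACS2, FastQC and Trimmomatic, with mm10 as the build. Their versions and settings, any Tn5 shift and how peaks were annotated were not given in the sources used here. Peaks were called per library. The score per peak was deposited by the authors without a stated meaning and was used only to rank peaks within a list. Positions, annotation, symbol and TSS are also the authors'.

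Peaks were chosen by annotation and width. Overlap needed 1 bp, and the partner was the peak with most shared bases. The overlap code differed from bedtools 2.31.1 at 0 of 34440 WT peaks. Shares have Wilson 95% intervals, medians order-statistic intervals. With 1 library per group no p-value was computed (Python 3.11.15, scipy 1.17.1). Genes count by widest promoter peak.

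The members, 16 lists and 11 name-based families were chosen with earlier results of these data known. Genes named were the 10 widest per list, the 5 widest unshared, the 5 with the largest width differences each way, those nearest the threshold, those with 2 broad WT peaks, up to 3 widest WT members per list, and Tkt, Foxp3 and Il2ra. Other names were chosen after their values were seen.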

Additional observations from a re-analysis of the deposited data

How the results depend on the processing

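No paired analysis was possible because a single library stood for each genotype, so leaving out replicates did not apply either. Depth is unknown and limits every count and width. With a minimum of 1500 bp the lists held 3102 WT and 1669 cKO peaks, the WT share with a partner was 96.3%, the share broad in both 47.8% of WT and 88.8% of cKO, the gap to narrower peaks 21.6 points, the median score percentiles 80.1 and 77.0, and the share of list members 52.4%, where all genes stood at 24.8%. With 2500 bp there were 327 and 143 peaks, 35.5% of WT broad in both, a WT score percentile of 74.6, and 12.3% of list members against 2.63% of all genes. Requiring 50% of each peak to overlap gave 86.1% (WT), 93.8% (cKO) and a gap of 12.7 points. Cutting the WT list to its 19680 strongest peaks, the size of the uncut cKO list, gave 99.8% (WT), 97.7% (cKO) and 7.95 points. The covered centre, chosen after seeing the data like the next 2 settings, gave 89.7%, 94.4% and 12.8 points. Against peaks of 1500 to under 2000 bp the gap was 2.52 points, and the widest WT peaks in equal number gave 64.3% broad in both. Within score bins the gap was 11.4 points, so it kept its sign in each setting run. Among promoter peaks only, score percentiles were 51.3 (WT) and 58.1 (cKO). Peaks with starts of 1 gene reached 901 bp upstream in WT, narrower WT peaks that hold their TSS had 60.7% G and C, and 18.4% of list members were broad in cKO, against 26.6% in WT. All 3 promoter classes together moved no share beyond its interval.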

Other observations

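The highest scoring broad peaks lay at predicted gene models. In WT, Gm10717 (chr9:3023434-3025910, 2477 bp) and Gm10722 (chr9:3000282-3002291, 2010 bp) held score ranks 2 and 3 of all peaks, Gm21738 on chromosome 14 rank 6 and Gm26917 on chromosome 17 rank 8. Gm10717, Gm21738 and Gm26917 were also broad in cKO, at ranks 2, 5 and 11, and their widths differed little between the lists (2477 and 2381 bp, 2058 and 2005 bp, 3539 and 3484 bp). The first broad peak at another gene was Gart, an enzyme of purine synthesis, at rank 64 with 2156 bp in WT and 1999 bp in cKO. These genes were named after their values were seen. No peak was left out here for an extreme score or for repeated sequence, and how uniquely reads map at these places was not tested.

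Genes of long noncoding RNAs had a broad peak at 106 of 991 WT promoter peaks (10.7%) and protein-coding genes at 717 of 10276 (6.98%), and in cKO at 53 of 743 (7.13%) and 353 of 8427 (4.19%). The class follows the assigned symbol, and broad WT peaks over the protein-coding genes Ier2, Zfp36l1 and Cd5 carried other symbols. The microRNA host gene Mir155hg, from a locus induced in activated lymphocytes, had 2236 bp in WT and 1559 bp in cKO. At Mir142, a microRNA locus of blood cells, the WT peak had 3004 bp, and the cKO peak of 2000 bp carried the symbol Mir142hg. By chromosome the broad share of WT promoter peaks lay between 5.30% on chromosome 7 (52 of 982) and 9.87% on chromosome 10 (67 of 679), leaving aside chromosome Y with 1 promoter peak.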
